A study of Mus musculus with 24 samples.

Results

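The conversion of mouse ESCs into L-EPSCs was examined in the Oct4-cKO tet-off line, by comparing the 2 libraries of its untreated L-EPSCs with the 2 libraries of its ESCs, which are 4 of the 24 libraries of the series. The members were taken from the sample labels, which name the line ZHBTc4 and give its genotype as Oct4 Tet-off knockin. The endogenous Oct4 gene (Pou5f1) is inactive in this established line, and Oct4 comes from a transgene that doxycycline (Dox) turns off, so both groups carried the same alleles and neither received Dox. The line is a single one, and its Oct4 is driven by the tet-off system rather than by its own promoter. L-EPSCs were kept in a serum-free base with knockout serum replacement, LIF, the GSK3 inhibitor CHIR99021, the MEK inhibitor PD0325901, the Src-family inhibitor A-419259, the tankyrase inhibitor XAV939, JNK inhibitor VIII and the p38 inhibitor SB203580. The labels describe serum, LIF and 2i (CHIR99021 with PD0325901) for J1 ESCs and give no separate recipe for the tet-off ESCs, so the medium, the conversion and the number of passages cannot be told apart in this comparison. Values are also given for the Dox-treated L-EPSCs of the same line, and for the ESCs and untreated L-EPSCs of the Sox2-cKO and Nanog-cKO tet-off lines. The Dox-treated L-EPSCs of those other lines entered the fit, which took in every tet-off library, so they add to the spread behind its p-values. The ESCs and L-EPSCs of the wild-type J1 line are set beside this conversion with no test.

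EPSCs are cultures derived from pluripotent cells in cocktails of inhibitors, and are named for a reported capacity to contribute to extraembryonic as well as embryonic lineages. In ESCs, FGF4 signals through MEK and ERK and pushes cells out of the naive state, while LIF with STAT3 and stabilised β-catenin hold them in it. XAV939 stabilises Axin and so dampens the transcription that β-catenin drives, SB203580 and JNK inhibitor VIII block stress-activated kinases, and A-419259 blocks the kinases of the Src family.

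Poly(A) RNA gave between 11502324 and 14014196 reads on genes in the 4 libraries, against a median of 12109406 over the 18 tet-off libraries. The deposited values are gene counts divided by a size factor for each library and are called normalized counts below. Across genes on the log2 scale, the Pearson r between replicates was 0.986 for the ESCs and 0.987 for the L-EPSCs. The labels do not say that the 2 replicates of a group are separate cultures. The p-values therefore measure only the spread between replicate libraries, pooled over the tet-off groups, and this spread may be technical. In bulk RNA a smaller number of cells of a type cannot be told apart from less RNA per cell. Counting intervals and floors of 3 reads cover counting error only.

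The targeted gene was read first. Pou5f1 stood at 8943 and 9063 normalized counts in ESCs against 6420.1 and 6316 in L-EPSCs, a log2 fold change of -0.50 ± 0.05 (SE) that did not reach the call of 0.6, and at 162 and 184 in the Dox-treated L-EPSCs. Pou5f1 was thus expressed in all 4 libraries compared, and the Dox-treated libraries stood far below them. Sox2 stood at 8719 and 8709 in ESCs against 5483 and 5479.6 in L-EPSCs and fell by a log2 fold change of 0.67 ± 0.06. Nanog was at 9691 and 9566 in ESCs against 7424 and 7636 in L-EPSCs, with a log2 fold change of -0.35 ± 0.04 that was not called.

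Of 24007 genes tested with limma, 3118 were called higher in L-EPSCs (13.0%) and 3704 lower (15.4%), together 28.4%, at an adjusted p below 0.05 and a log2 fold change beyond 0.6. The median log2 fold change over all genes was 0. Among the 12945 genes with a mean of at least 20 over the 4 libraries, 19.5% were called higher and 20.8% lower. Most members of most gene lists reach that level. Both pairs of percentages are therefore the background against which the counts of each gene list are read.

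**Figure D1:**
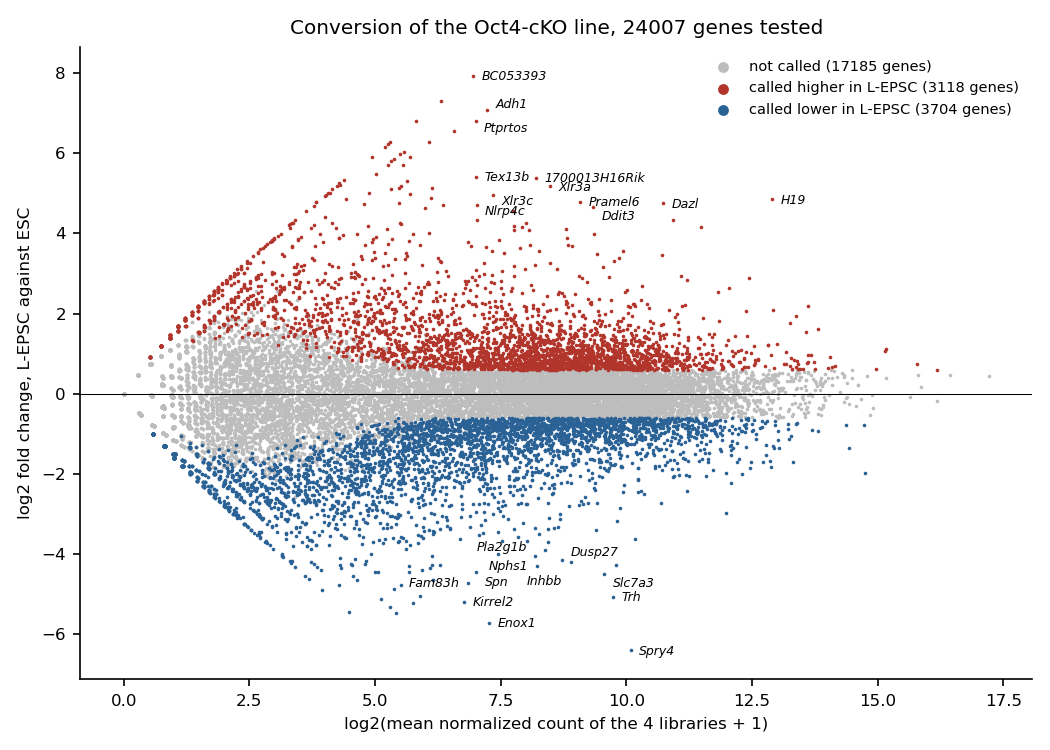
Each point is 1 of the 24007 genes tested, with its mean level over the 4 libraries on the x axis, log2(mean normalized count + 1), and its log2 fold change between L-EPSCs and ESCs on the y axis. Red points are the 3118 genes called higher and blue points the 3704 called lower, and the genes named on the plot are among the 12 with the largest change in each direction at a mean of at least 100, from Spry4 at -6.40 to BC053393 at 7.93.

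Among the most raised genes, at a mean of 100 normalized counts or more, several were silent or close to silent in the ESCs. BC053393 had no read in either ESC library and 274 and 216 normalized counts in L-EPSCs, which is at least 78.1-fold higher when the floor is set at 3 reads per library. Adh1, an alcohol dehydrogenase that acts on retinol, went from 0 and 3.87 to 315 and 277. The X-linked Tex13b rose from 6.27 and 3.87 to 245 and 257, and Xlr3a, also X-linked, from 16.7 and 20.3 to 702 and 696. Xlr3a is of a family with near-identical copies, to which reads cannot be assigned with certainty. Of the 12 genes with the largest rise, 4 lie on the X chromosome (Tex13b, 1700013H16Rik, Xlr3a and Xlr3c), which holds 3.23% of the genes with a mean of at least 100. Pramel6, an inhibitor of DNA methylation in naive cells and also a member of a multicopy family, rose from 38.7 and 35.8 to 1020.5 and 1076. Ptprtos and Nlrp4c, with log2 fold changes of 6.80 and 4.71, complete this group with H19, Dazl and Ddit3, described below.

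The largest fall was that of Spry4, a feedback inhibitor of receptor tyrosine kinase signalling. It stood at 2116 and 2173 normalized counts in ESCs against 26.6 and 22.5 in L-EPSCs, a log2 fold change of -6.40 ± 0.24 (adjusted p = 2.0e-12). Enox1 went from 294 and 308 to 2.66 and 8.08. Trh, which encodes the precursor of thyrotropin-releasing hormone, stood at 1643 and 1652 in ESCs against 47.9 and 48.5 in L-EPSCs, and Slc7a3, a transporter of cationic amino acids, at 1479 and 1407 in ESCs against 62.1 and 63.8 in L-EPSCs. In each of these genes the lowest ESC library lay far above the highest L-EPSC library. Kirrel2 and Nphs1, which encode immunoglobulin-family proteins of the nephrin group, fell by log2 fold changes of 5.20 ± 0.32 and 4.29 ± 0.32. They are neighbours in NCBIM37, Kirrel2 at chromosome 7, 31232553-31242709, minus strand and Nphs1 at chromosome 7, 31243334-31272242, plus strand, with 624 bases between them. Without a stated strand setting in the counting, reads near the ends of such pairs cannot be assigned to a strand with certainty. Fam83h, Spn, Inhbb, Dusp27 and Pla2g1b fell too, their log2 fold changes lying between -4.71 and -4.03.

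Among called genes, the largest gains in mean normalized count were those of Eef2, the elongation factor of translation, Gapdh, Aldoa, Slc2a3, Txnip and Gpi1. Gapdh, of glycolysis, went from 42281 and 42119.7 to 70663 and 69744 normalized counts. The glucose transporter gene Slc2a3 stood at 23258 and 23715 in ESCs against 48929 and 48888 in L-EPSCs, and Aldoa (aldolase) at 23108 and 22856 in ESCs against 50346 and 50113 in L-EPSCs. Txnip, a glucose-responsive inhibitor of thioredoxin and of glucose uptake, rose from 4447 and 4576 to 20693 and 20487, a log2 fold change of 2.19 ± 0.02. Eef2 itself was at the edge of the call, with a log2 fold change of 0.60 whose call is lost without ESC replicate 2. The largest losses in mean normalized count among called genes were of mt-Cytb, Trim28, Ncl, Polr2a, mt-Nd5 and Set. Polr2a, the large subunit of RNA polymerase II, stood at 15425 and 15861 in ESCs against 4712 and 4915 in L-EPSCs, and Ncl (nucleolin) at 34133 and 34932 in ESCs against 20111 and 19829.7 in L-EPSCs.

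The genes of the pluripotency network fell more often than they rose. Of 18 naive pluripotency genes tested, 9 were called lower, 3 higher and 6 were not called, with a median log2 fold change of -0.59. Nr0b1 (Dax1), a nuclear receptor that binds Oct4, went from 1208 and 1238 to 123 and 106, the largest fall of this list at -3.41 ± 0.29. Zfp42 (Rex1), the classic marker of undifferentiated cells, stood at 11972 and 11710.0 in ESCs against 3344 and 3286 in L-EPSCs, and Esrrb, a target of GSK3 inhibition and of the core network, at 10505 and 10502 in ESCs against 3660.4 and 3642 in L-EPSCs. The Krüppel-like factors Klf4 and Klf5 also fell, by 0.78 and 0.87, and Tbx3 had a log2 fold change of -0.95. Tfcp2l1, Nr5a2 and Prdm14 were not called, with log2 fold changes of -0.08, -0.07 and -0.21. Against this direction, Dppa3 (Stella), a maternal factor that protects against DNA methylation, stood at 43.9 and 52.2 in ESCs against 850.1 and 823 in L-EPSCs, and Spic rose from 46.0 and 38.7 to 407 and 374. The groups did not overlap for these genes, but that held for every called member of the gene lists and adds nothing to the calls. Of 8 genes that identify the culture as pluripotent, 4 were called lower and 0 higher, and the lowest of them in L-EPSCs, Sall4, still had 2738 and 2846 normalized counts.

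No gene of formative and primed pluripotency rose. Of 20 tested, 14 were called lower and 6 were not called, and the median log2 fold change was -1.52. Lin28a, which blocks the maturation of let-7 microRNAs, went from 3188 and 3113 to 738 and 749, and its paralog Lin28b fell by 2.47. Utf1 went from 3663 and 3611 to 1134 and 1128, and Foxd3 from 511 and 526 to 69.2 and 104. Otx2, the factor that organises the formative state, stood at 835 and 844 in ESCs against 519 and 545 in L-EPSCs (-0.66 ± 0.10). The 14 genes called are 70.0% of the list, beside a background of 15.4%, or 20.8% at a mean of at least 20.

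Most genes that place and remove DNA methylation were lower. Of 12 tested, 8 were called lower, 0 higher and 4 were not called, with a median of -0.84. The de novo methyltransferase gene Dnmt3b stood at 3237 and 3307 normalized counts in ESCs against 918 and 879 in L-EPSCs, a log2 fold change of -1.86 ± 0.05 (adjusted p = 2.3e-14), whereas Dnmt3a fell by 0.68 ± 0.04 and Dnmt3l, their cofactor, was not called at -0.54 ± 0.05. Tet1 and Tet2, which oxidise methylcytosine, stood at 11347 and 11300.1 in ESCs against 3579 and 3563 in L-EPSCs and at 4385 and 4308 in ESCs against 1832 and 1805 in L-EPSCs, respectively. Zfp57 and Trim28, the pair that keeps methylation at imprinted regions, fell by 1.71 ± 0.05 and 1.34 ± 0.02. The maintenance methyltransferase Dnmt1 was at 6466 and 6455 in ESCs against 6409 and 6560.2 in L-EPSCs, a log2 fold change of 0.01 ± 0.02.

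Genes of germ cells, many of which are silenced by promoter methylation in somatic and pluripotent cells, rose more often than they fell. Of 18 tested, 7 were called higher, 3 lower and 8 were not called. The raised share was 38.9%, beside 13.0% of all genes, or 19.5% at a mean of at least 20. The share that fell was 16.7%, near its background of 15.4%, or 20.8% at that level. Dazl, an RNA-binding protein of germ cells, stood at 129.7 and 113 normalized counts in ESCs against 3237 and 3331 in L-EPSCs (4.75 ± 0.11, adjusted p = 6.0e-15). Asz1, a component of the piRNA pathway, rose from 2.09 and 0.967 to 89.6 and 81.7, Taf7l from 89.9 and 83.2 to 341 and 305, and Hormad1 from 106 and 97.7 to 279.5 and 275. Sycp3, of the synaptonemal complex, was at the edge of the call at 0.60, and its call is lost without ESC replicate 1 (0.44) or L-EPSC replicate 2 (0.56). Ddx4 (Vasa) was not called at 0.33. Mael was among the 3 genes that fell, by 0.83, and 1 gene is called lower without ESC replicate 2 or without L-EPSC replicate 1.

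The promoters of Dazl and Asz1, the most raised members of this list, are shown because CG dinucleotides are the substrate of DNA methylation. Each is the RefSeq window from 250 bases before to 50 bases after the start site on GRCm38.p6 (Dazl chr17:50293571-50293870 and Asz1 chr6:18109012-18109311, both on the minus strand), with the CG dinucleotides in capitals.
Dazl: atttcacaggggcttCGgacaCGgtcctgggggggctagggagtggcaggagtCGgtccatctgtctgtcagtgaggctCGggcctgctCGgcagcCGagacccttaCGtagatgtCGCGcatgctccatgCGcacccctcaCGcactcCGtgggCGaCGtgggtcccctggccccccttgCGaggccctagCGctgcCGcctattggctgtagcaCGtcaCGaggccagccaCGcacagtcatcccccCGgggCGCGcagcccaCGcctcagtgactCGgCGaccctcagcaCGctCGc
Asz1: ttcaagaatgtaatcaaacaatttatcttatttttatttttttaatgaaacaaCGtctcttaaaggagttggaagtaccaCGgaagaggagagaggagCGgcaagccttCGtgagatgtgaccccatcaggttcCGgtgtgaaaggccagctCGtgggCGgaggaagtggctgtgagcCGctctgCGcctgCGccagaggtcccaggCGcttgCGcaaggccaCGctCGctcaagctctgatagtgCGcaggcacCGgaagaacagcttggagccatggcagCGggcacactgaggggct
Dazl has 28 and Asz1 17 CG dinucleotides in this window, against a median of 8 over 27025 genes. The 7 raised germline genes had between 15 and 29, with a median of 19, and the 7 members with a promoter entry that were not called had a median of 25, so the count did not separate raised from uncalled members. No methylation was measured here.

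Genes that mark the 2C-like state were lower or not called. Of 14 tested, 7 were called lower and 0 higher, and without ESC replicate 2 Tdpoz4 is called higher at 1.83 (1.08 with all libraries). Zscan4c, the most abundant of the Zscan4 genes in ESCs (339.8 and 329 normalized counts), fell by 3.04 ± 0.28, and Zscan4d, Zscan4b, Zscan4e and Zscan4f fell with log2 fold changes between -4.86 and -2.74. The Zscan4 genes are near-identical copies to which reads cannot be assigned with certainty, so their separate values are uncertain. Dppa2 and Dppa4, which activate the 2C programme, fell by 1.62 ± 0.09 and 0.73 ± 0.06, while Zfp352 and 4 Usp17l genes were not called, at log2 fold changes between -0.27 and 0.46. All 7 genes that fell were also called lower in the conversion of the Sox2-cKO line, against 2 of them, Dppa2 and Dppa4, in that of the Nanog-cKO line, where Zscan4c was called higher at 1.19 ± 0.28. The median log2 fold change of the list was -0.50 here, -1.51 in the Sox2-cKO line and 1.06 in the Nanog-cKO line. In the test of the difference between the Oct4-cKO line and the mean of the other lines, 6 of the 14 tested were called, beside 10.1% of all genes. They were the 5 Zscan4 genes, towards a lower value in the Oct4-cKO line, and Dppa2, towards a higher one.

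Most targets and feedback inhibitors of ERK signalling were lower in L-EPSCs. Of 18 tested, 13 were called lower, 2 higher and 3 were not called, with a median log2 fold change of -1.73. Beside Spry4, its paralog Spry2 stood at 2222 and 2193 in ESCs against 404 and 379 in L-EPSCs, and the ERK phosphatase gene Dusp6 at 741 and 697 in ESCs against 63.9 and 79.9 in L-EPSCs. Myc went from 601 and 648 to 29.3 and 56.6, and Egr1, an immediate-early transcription factor, from 297 and 307 to 38.2 and 53.9. The ETS factor genes Etv1, Etv4 and Etv5 fell by 2.29, 1.70 and 1.39, and the Sprouty-related Spred1 and Spred2 had log2 fold changes of -1.29 and -1.24. Spry1 and Dusp5 were not called, at -0.38 and 0.36. Fos and Ier3 were the members that rose. Fos, an immediate-early gene with a serum response element, stood at 64.8 and 48.3 normalized counts in ESCs against 819 and 859.7 in L-EPSCs (3.88 ± 0.14), and Ier3 rose by 1.60 ± 0.15.

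**Figure D2:**
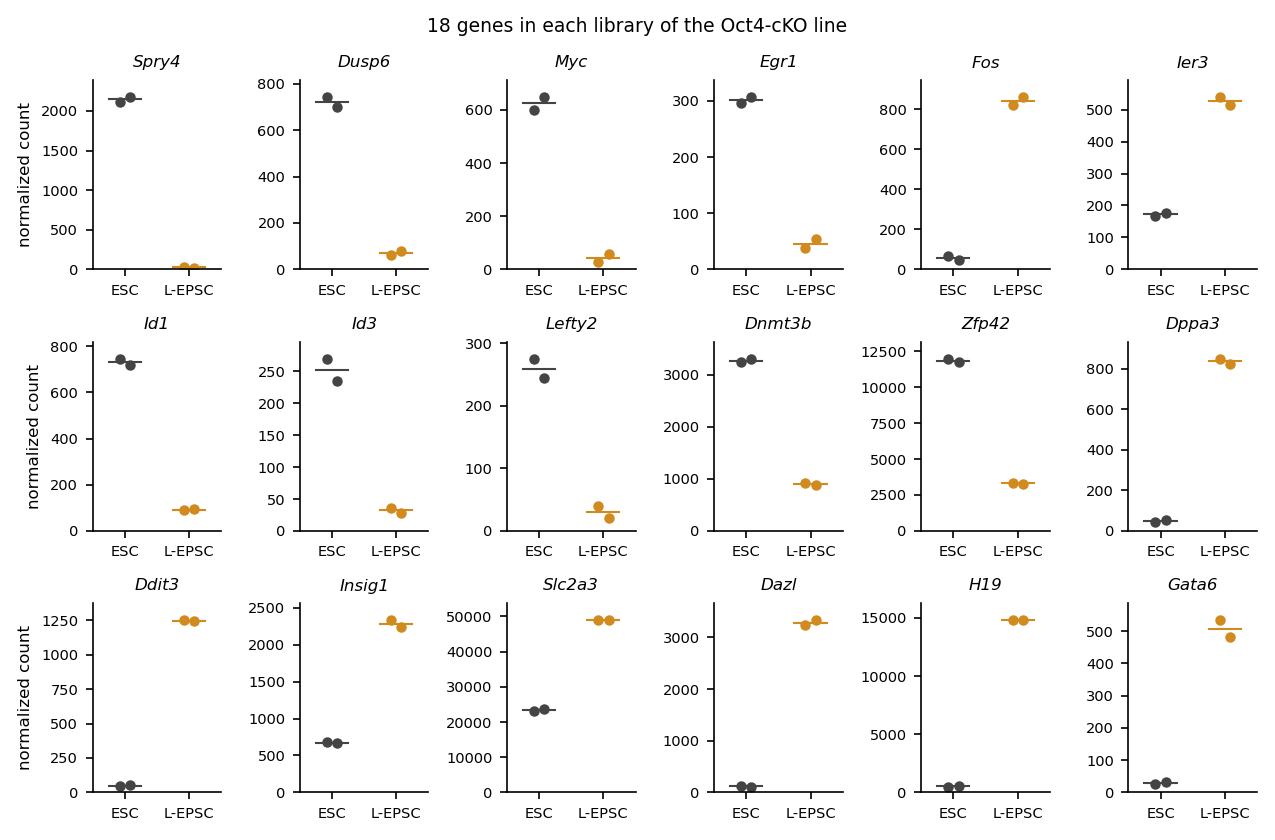
Normalized counts (y axis, linear, from 0, with its own scale in each panel) of 18 genes in the 2 ESC libraries (grey) and the 2 L-EPSC libraries (orange) of the Oct4-cKO line, with points for libraries and a line for their mean. In every panel the 2 groups are separated, and Spry4 goes from 2116 and 2173 in ESCs to 26.6 and 22.5 in L-EPSCs whereas Fos goes from 64.8 and 48.3 to 819 and 859.7.

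More AP-1 subunits and stress-kinase targets rose than fell, and Fos belongs to this list as well. Of 11 tested, 6 were called higher and 1 lower, with a median of 1.49. Gadd45b, a stress sensor that acts on p38 and JNK signalling, stood at 171 and 149 in ESCs against 1677 and 1691 in L-EPSCs (3.39 ± 0.07). Jun, the substrate of JNK, went from 99.3 and 94.8 to 382 and 453, Fosb from 12.5 and 1.93 to 97.6 and 99.7 and Atf3 from 12.5 and 6.77 to 66.6 and 55.7. Junb was the member that fell, by 0.89, and Jund and Gadd45a were not called, at 0.59 and -0.32, although Jund is called without ESC replicate 1 (0.68) or L-EPSC replicate 1 (0.63) and with TMM scaling (0.61). The raised members had at most 171 normalized counts in an ESC library.

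Targets of SRF and YAP, which respond to actin tension and cell density, rose in part. Of 14 tested, 6 were called higher, 1 lower and 7 were not called. Ccn1 (Cyr61) stood at 113 and 133 in ESCs against 950.4 and 941 in L-EPSCs and Ccn2 (Ctgf) at 147 and 158 in ESCs against 834 and 886 in L-EPSCs. Amotl2, a YAP regulator, rose by 1.22, the smooth-muscle gene Tagln from 11.5 and 10.6 to 73.7 and 62.0, and Tpm1 (tropomyosin) by 1.22. Axl fell by 1.89, and Srf and Vcl were not called, at -0.24 and -0.07.

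Of 18 genes that encode targets of the inhibitors in the L-EPSC medium, 5 were called higher and 5 lower. Src-family kinase genes moved both ways. Lck fell from 279 and 293 to 96.7 and 87.1. Fgr and Yes1 fell by 0.90 ± 0.29 and 0.67 ± 0.04, whereas Lyn rose from 119 and 102 to 272 and 264, by 1.27 ± 0.23. Src itself was at 805 and 750.3 in ESCs against 805 and 824 in L-EPSCs and Fyn was not called at 0.07. The p38 gene Mapk11 fell by 1.67, and Mapk14 was not called at -0.21. Of the JNK genes, Mapk8 rose by 0.70 ± 0.07 and Mapk10, at low counts, from 7.32 and 3.87 to 21.3 and 10.8, while Mapk9 was not called at 0.24. Several of these calls rest on 1 library. That of Fgr is lost without ESC replicate 1 (-0.85) or L-EPSC replicate 2 (-0.80), that of Mapk8 without L-EPSC replicate 2 (0.56), and that of Mapk10 without ESC replicate 2 (0.96) or L-EPSC replicate 1 (0.89). With median centring 3 members are called higher. Map2k1 (MEK1) rose by 0.64 ± 0.05 and the tankyrase gene Tnks by 0.78 ± 0.04.

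Wnt targets were mostly not called. Of 19 tested, 4 were called lower, 0 higher and 15 were not called, with a median of -0.12. The 4 are 21.1% of the list, beside 15.4% of all genes and 20.8% of genes with a mean of at least 20. Notum, a secreted enzyme that inactivates Wnt ligands, stood at 339 and 338 in ESCs against 30.2 and 21.6 in L-EPSCs, and Axin2, the most general of the β-catenin targets, at 233 and 213 in ESCs against 68.3 and 64.7 in L-EPSCs. Ccnd1 and Lef1 fell by 1.82 ± 0.24 and 1.97 ± 0.36. Tcf7, Nkd1 and Rnf43 were not called, at -0.14, 0.61 and 0.67. Without ESC replicate 2, 2 members are called higher, Nkd1 at 0.97 and Sp8 at 3.48.

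In the TGF-β family, several ligands and antagonists fell while receptor genes were not called. Of 14 genes of the Nodal and Activin pathway, 6 were called lower and 1 higher. Inhbb, an Activin subunit, stood at 889 and 909 in ESCs against 52.4 and 44.0 in L-EPSCs and Nodal at 1005 and 987 in ESCs against 167 and 164 in L-EPSCs. The Nodal antagonists Lefty1 and Lefty2 fell by 2.46 ± 0.38 and 3.14 ± 0.30. The receptor genes Acvr1b, Acvr2a and Acvr2b were not called, at -0.36, -0.43 and -0.15, with Acvr2a called lower at -0.60 without ESC replicate 2.

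Of 16 genes of the BMP pathway, 6 were called lower, 1 higher and 9 were not called, with a median of 0.27. Id1 and Id3, the inhibitors of differentiation that BMP induces, stood at 746 and 719 in ESCs against 88.7 and 93.4 in L-EPSCs and at 269.8 and 235 in ESCs against 36.4 and 27.8 in L-EPSCs, respectively. Bmp4 went from 576 and 614 to 129.6 and 154, while Bmp7 rose from 144 and 146 to 412 and 422. The receptor gene Bmpr1a and the mediator Smad1 were not called, at 0.27 and 0.42. In the LIF pathway, 7 of 11 genes were called lower and 2 higher. The receptor genes Lifr and Il6st fell by 1.12 ± 0.09 and 0.79 ± 0.06, and Gbx2 went from 197 and 268 to 48.8 and 54.8 normalized counts, whereas Socs3 and Stat3 were not called, at -0.04 and 0.15.

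Genes of the retinoid pathway moved both ways, with 6 called higher and 5 lower of 17, and 3 higher without ESC replicate 1. The receptor gene Rarg stood at 3199.6 and 3167 in ESCs against 826 and 719.5 in L-EPSCs, and Rara fell by 1.17 ± 0.08 and Rxrb went from 628 and 555 to 352 and 367. Stra8, induced by retinoic acid at the entry into meiosis, rose from 210.2 and 171 to 1400.3 and 1462, and Dhrs3, which reduces retinaldehyde, from 27.2 and 30.9 to 119.8 and 134.

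Glycolysis genes rose more often than they fell. Of 18 glycolysis genes, 9 were called higher, 1 lower and 8 were not called, with a median of 0.66, and the list as a whole took 2.01% of normalized counts in each ESC library and 2.88% and 2.87% in the L-EPSC libraries. Gpi1 (glucose phosphate isomerase) stood at 7051 and 7153 in ESCs against 22107 and 21576 in L-EPSCs (1.62 ± 0.03) and Hk1 (hexokinase) at 1729 and 1885 in ESCs against 5009 and 5103 in L-EPSCs. Aldoc rose by 1.94, Tpi1 by 0.87 and Pgk1 by 0.76. Pkm and Ldha were not called, at -0.07 and 0.43, and Pdk1, a pyruvate dehydrogenase kinase gene, fell by 0.94 ± 0.05. Of 25 genes of the TCA cycle and fatty acid oxidation, 5 were called higher and 0 lower, with a median of 0.30. The 5 are 20.0% of the list, beside 19.5% of genes with a mean of at least 20.

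Genes of lipid synthesis rose in part. Of 23 genes of cholesterol synthesis and uptake, 9 were called higher, 2 lower and 12 were not called, with a median of 0.24. Insig1, the sterol sensor that holds SREBP in the endoplasmic reticulum, stood at 682 and 665 normalized counts in ESCs against 2330.2 and 2237 in L-EPSCs (1.76 ± 0.05). Cyp51, Dhcr7 and Msmo1, enzymes of the late pathway, rose by 1.34 ± 0.07, 1.28 ± 0.05 and 1.11 ± 0.06, and the sterol carrier Stard4 by 1.34 ± 0.06. Sqle, which epoxidises squalene, was not called at 0.22, nor was Srebf2 at 0.24. For fatty acids, 7 of 13 were called higher and 1 lower. The desaturase gene Scd1 stood at 1263 and 1243 in ESCs against 4529 and 4706 in L-EPSCs and Me1, the malic enzyme that supplies NADPH, at 349 and 327 in ESCs against 2224 and 2179 in L-EPSCs. Fasn, the fatty acid synthase, was the member that fell, from 7383 and 7260.4 to 2296 and 2433.

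Targets of ATF4, the factor of the integrated stress response, rose more often than they fell. Of 23 tested, 10 were called higher, 3 lower and 10 were not called, with a median of 0.50. Ddit3 (Chop), a stress-induced partner of C/EBP proteins, stood at 46.0 and 51.2 normalized counts in ESCs against 1249 and 1245 in L-EPSCs (4.65 ± 0.08, adjusted p = 1.1e-16). Atf4 itself went from 1025 and 1071 to 2099.5 and 2172, Trib3 from 165 and 186 to 365 and 362, and Ddit4, an inhibitor of mTORC1, from 813 and 840.2 to 3305 and 3276. Nupr1 rose from 36.6 and 55.1 to 267 and 262, and the biosynthetic genes Phgdh, Mthfd2 and Pycr1 by 0.70, 0.87 and 0.63, the call of Pycr1 being lost without ESC replicate 1 (0.47) or L-EPSC replicate 1 (0.59). Asns and Atf5 were not called, at -0.23 and -0.17, and Slc7a3 and Shmt2 fell by 4.50 and 0.87.

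The motif TGATGNAAT, to which C/EBP and ATF proteins bind, was looked for on both strands of the same RefSeq promoter windows, since 10 members of this list rose. It was present for 2 of the 10 raised members (Nupr1 and Pycr1), for 1 of the 8 uncalled members with a promoter entry, and for 1.08% of 27025 genes. Both windows are shown with the motif in capitals (Nupr1 chr7:126625421-126625720 and Pycr1 chr11:120643699-120643998 on GRCm38.p6, both on the minus strand).
Nupr1: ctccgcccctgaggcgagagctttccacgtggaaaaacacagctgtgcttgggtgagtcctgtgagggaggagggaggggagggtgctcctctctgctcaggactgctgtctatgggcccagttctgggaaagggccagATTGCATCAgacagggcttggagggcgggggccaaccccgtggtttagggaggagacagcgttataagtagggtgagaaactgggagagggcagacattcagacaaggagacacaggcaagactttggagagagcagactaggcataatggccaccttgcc
Pycr1: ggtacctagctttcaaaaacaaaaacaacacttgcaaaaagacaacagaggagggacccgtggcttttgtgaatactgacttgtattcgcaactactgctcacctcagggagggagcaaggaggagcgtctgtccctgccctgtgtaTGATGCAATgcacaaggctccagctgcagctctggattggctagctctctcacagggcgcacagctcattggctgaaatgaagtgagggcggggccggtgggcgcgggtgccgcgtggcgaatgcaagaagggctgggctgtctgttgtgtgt
The motif starts 111 bases before the start site in Nupr1, where it is read on the opposite strand, and 103 bases before it in Pycr1. The sterol regulatory motif TCACNCCAC was in 0 of 15 cholesterol genes with a promoter entry and in 1.44% of genes, and the CArG box, to which SRF binds, was in 3 of 11 SRF and YAP targets (Myl9, Srf and Vcl, none of them called) and in 1.81% of genes.

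Markers of extraembryonic lineages rose more often than they fell. Of 17 trophoblast genes, 10 were called higher, 0 lower and 7 were not called, with a median of 0.87. The keratin gene Krt19 stood at 158 and 148 in ESCs against 1857 and 1746 in L-EPSCs (3.55 ± 0.13), Krt18 at 498 and 516 in ESCs against 1578 and 1549.5 in L-EPSCs, and Krt8 at 720.4 and 646 in ESCs against 1798 and 1689 in L-EPSCs. The placental gene Plac1 rose from 10.5 and 14.5 to 138 and 137 and the transcription factor gene Gata3 from 36.6 and 52.2 to 192 and 227. The defining trophectoderm factor Cdx2 was at 37.6 and 23.2 in ESCs against 24.0 and 30.5 in L-EPSCs and Eomes at 140.1 and 127 in ESCs against 128 and 121 in L-EPSCs, and neither was called, nor was Elf5 at 5.23 and 6.77 in ESCs against 7.99 and 8.98 in L-EPSCs. In the Dox-treated L-EPSCs of this line Krt19 was at 14832 and 14558, Plac1 at 3375 and 3230.2 and Cdx2 at 58.7 and 59.9.

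Of 17 primitive endoderm genes, 7 were called higher, 1 lower and 9 were not called. Gata6, the factor that specifies this lineage, stood at 26.1 and 31.9 normalized counts in ESCs against 534 and 481 in L-EPSCs (4.09 ± 0.16). The endocytic adaptor Dab2 rose from 63.8 and 79.3 to 499.6 and 451, and the basement membrane collagens Col4a1 and Col4a2 from 2868 and 3024 to 12470.2 and 12736 and from 1097 and 1048 to 6153 and 6279. Sox17, at low counts, was at 4.18 and 3.87 in ESCs against 14.2 and 29.6 in L-EPSCs, and its call is lost without any 1 of the 4 libraries, at log2 fold changes between 1.60 and 2.61. Gata4, Hnf4a and Sox7 were not called, with 63.8 and 27.1 in ESCs against 56.8 and 67.4 in L-EPSCs for Gata4, and the laminin gene Lama1 fell by 0.66. Of 15 primitive streak genes, 1 was called higher (Gsc) and 2 lower, and T (Brachyury) was at 7.32 and 14.5 in ESCs against 3.55 and 2.69 in L-EPSCs and was not called. The 11 neural and ectoderm genes split into 3 higher and 4 lower (2 lower without L-EPSC replicate 2), with Tubb3 at 859.5 and 869 in ESCs against 218 and 199 in L-EPSCs and Nes at 356 and 414 in ESCs against 658 and 631 in L-EPSCs.

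Genes of other cell types were read to check the cultures. Of 12 fibroblast genes, 2 were called higher and 2 lower (1 lower without ESC replicate 1 or L-EPSC replicate 2). Col1a1 was at 51.2 and 73.5 in ESCs against 52.4 and 27.8 in L-EPSCs and Col3a1 at 0 and 0 in ESCs against 0 and 0.898 in L-EPSCs, and the list took between 0.00761% and 0.0114% of normalized counts in each library. Of 9 macrophage genes, 1 was called higher (Cd68, 188 and 181 in ESCs against 398 and 428 in L-EPSCs) and 1 lower (Mrc1, 15.7 and 11.6 in ESCs against 2.66 and 0.898 in L-EPSCs), and without L-EPSC replicate 1 the number called higher is 3, with Adgre1 at 1.48 and Csf1r at 2.14. Ptprc stood at 0 and 0 in ESCs against 1.77 and 0 in L-EPSCs, and Lyz2 and Tyrobp had no read in any of the 4 libraries. The defining genes Col3a1, Ptprc, Lyz2 and Tyrobp were thus at or near 0 in both groups. The macrophage list took 0.00174% and 0.00163% of normalized counts in ESCs against 0.00328% and 0.00365% in L-EPSCs, nearly all of it from Cd68, a lysosomal protein that other cells express too.

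Cell cycle regulators split by function. Of 17 cell cycle regulators, 6 were called higher and 5 lower. All 6 that rose encode inhibitors of cyclin-dependent kinases, Cdkn1a, Cdkn1b, Cdkn1c, Cdkn2a, Cdkn2b and Cdkn2c. Cdkn1a (p21) stood at 494 and 539 in ESCs against 2277 and 2251 in L-EPSCs (2.13 ± 0.06) and Cdkn2c at 25.1 and 25.1 in ESCs against 87.0 and 97.9 in L-EPSCs. The 5 that fell were Ccnd1, Ccnd2, Ccne1, Cdk4 and Cdk6, with Ccne1 at 2053 and 2000.5 in ESCs against 851 and 858 in L-EPSCs and Cdk6 at 154 and 152 in ESCs against 23.1 and 49.4 in L-EPSCs, whereas the cyclin genes Ccnd3 and Ccne2 were not called, at 0.15 and 0.27. Ccna2, Ccnb1 and Cdk1, of S phase and mitosis, were not called, at -0.14, -0.02 and 0.35. Of 16 p53 targets, 4 were called higher and 0 lower, among them Cdkn1a and Gdf15 (1.11), while Mdm2 and Bax were not called, at 0.56 and -0.31. Interferon and antigen presentation genes stood near the background of all genes tested, with 2 of 22 higher and 3 lower. So did antioxidant genes, with 2 of 12 higher and 1 lower.

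Of 13 mitochondrially encoded genes, 6 were called lower and 1 higher, and their L-EPSC replicates differed. The cytochrome b gene mt-Cytb stood at 43107 and 44359 in ESCs against 12094 and 10362 in L-EPSCs (-1.97 ± 0.06), mt-Nd5 at 26103 and 26666 in ESCs against 19738 and 11821 in L-EPSCs, and mt-Nd6, encoded on the opposite strand to mt-Nd5, at 423 and 354 in ESCs against 711 and 1956 in L-EPSCs. The calls of both are lost without L-EPSC replicate 2, where the log2 fold changes are -0.42 for mt-Nd5 and 0.87 for mt-Nd6, and without ESC replicate 2, where they are -0.77 and 1.48. Without L-EPSC replicate 1 they are -1.16 and 2.33. Without ESC replicate 2 the list has 3 members called lower and 0 higher. As a share of all normalized counts the list took 1.60% and 1.63% in ESCs against 1.45% and 1.32% in L-EPSCs. Of the remaining lists, 4 of 14 epithelial and mesenchymal genes were higher and 2 lower, with Cldn6 at 1.44 and Vim at -0.97, and 2 of 11 FGF ligand and receptor genes were higher and 3 lower, with Fgf4 not called at -0.20.

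**Figure D3:**
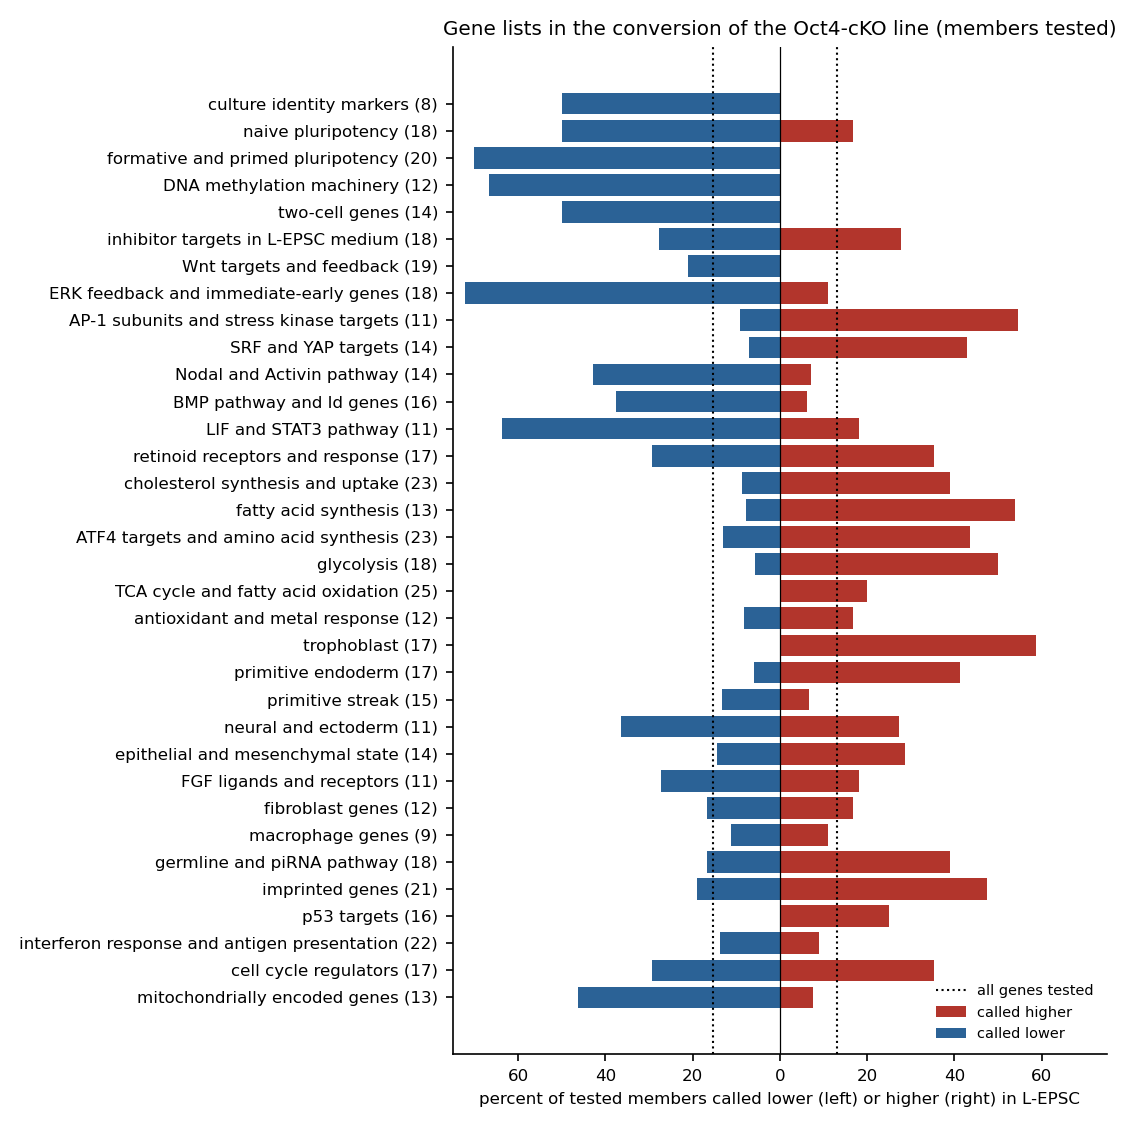
Percent of the tested members of 34 gene lists (number tested in parentheses) called higher (red, to the right) or lower (blue, to the left) in L-EPSCs of the Oct4-cKO line. The dotted lines mark all genes tested, 13.0% higher and 15.4% lower, and the lists with over 60% of members lower are the ERK feedback, formative pluripotency, DNA methylation and LIF lists.

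The study followed Eif4a2, Zfp281, Zmym2 and Tfap2c for EPSCs, and they did not move alike here. It reported Zfp281 and Zmym2 transcripts as higher in its EPSCs than in its ESCs. For Eif4a2 in L-EPSCs and Tfap2c in both kinds of EPSC it reported more protein, whereas the values here are RNA. Eif4a2, a subunit of the translation initiation complex, stood at 8796 and 9098 in ESCs against 17379 and 17349 in L-EPSCs and rose by 0.96 ± 0.03. Zfp281, a zinc-finger repressor, fell from 1749 and 1770.4 to 748 and 827. Zmym2 and Tfap2c were not called, at 0.09 ± 0.05 and 0.57 ± 0.04, although Tfap2c is called without ESC replicate 2 (0.64).

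Whether these changes belong to the Oct4-cKO line was examined against the conversions of the Sox2-cKO and Nanog-cKO lines, which share no library with it. Of the 3118 genes called higher, 1329 (42.6%) were also called higher in the Sox2-cKO line, which is 69.3% of the genes called higher there, where 7.99% of all genes were so called, and 1552 (49.8%) in the Nanog-cKO line, 53% of its own and with 12.2% of all genes so called there. Of the 3704 called lower, 1697 (45.8%) were also lower in the Sox2-cKO line, 60.7% of the genes lower there (11.6% of all genes), and 1933 (52.2%) in the Nanog-cKO line, 54.8% of its own (14.7% of all genes). Called in neither other line were 993 of the genes higher here (31.8%) and 1131 of those lower here (30.5%). Genes higher here were called lower in the Sox2-cKO line in 91 cases and in the Nanog-cKO line in 97, and genes lower here were called higher there in 20 and 100. Over 9907 genes with a mean of at least 100 the log2 fold changes had a Pearson r of 0.78 with the Sox2-cKO line and 0.72 with the Nanog-cKO line, a description across genes, which are not replicates. Of all genes lower here 30.4% were called lower in both other lines, and of all genes higher here 28.3% were called higher in both. Beside these shares, all 13 ERK feedback genes lower in the Oct4-cKO line were called lower in both other lines, as were 10 of the 14 formative genes. In turn, 8 of the 9 raised cholesterol genes and all 7 raised fatty acid genes were called higher in both. Dazl had log2 fold changes of 4.21 ± 0.11 and 4.78 ± 0.11 in the other lines, and Fos of 2.58 ± 0.14 and 3.75 ± 0.14.

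The difference itself was tested as the conversion of the Oct4-cKO line minus the mean of the other conversions, and 2436 of 24007 genes (10.1%) were called. Of these, 1353 went towards a higher and 1083 towards a lower value in the Oct4-cKO line. Among genes with a mean of at least 100 over the 12 ESC and untreated L-EPSC libraries, the 4 with the largest difference towards the Oct4-cKO line were H19, Meg3, Rian and Mirg, all imprinted, that is expressed from 1 parental allele. Of 21 imprinted genes tested, 10 were called higher and 4 lower in the Oct4-cKO conversion. The background was 13.0% and 15.4%, or 19.5% and 20.8% at a mean of at least 20. For 14 of the 21 the difference between lines was called, in each case towards a higher value in the Oct4-cKO line. H19, the noncoding RNA next to Igf2 (chromosome 7, 149761434-149764048, minus strand in NCBIM37), stood at 497 and 528 normalized counts in ESCs against 14778 and 14798 in L-EPSCs (4.85 ± 0.10). In the Sox2-cKO line it was at 15034 and 15469 before conversion and at 11794 and 11731 after it, and in the Nanog-cKO line at 142 and 99.8 and 87.3 and 98.9. The converted Oct4-cKO cells thus reached a level close to that which the Sox2-cKO line had before and after conversion, while the Nanog-cKO line stayed low throughout. The difference between lines was 5.21 ± 0.12 (adjusted p = 8.3e-14).

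Meg3, Rian and Mirg, maternally expressed noncoding RNAs of 1 cluster on chromosome 12, behaved in another way. Meg3 (chromosome 12, 110779211-110809936, plus strand) stood at 154 and 161 in ESCs against 1520.1 and 1612 in L-EPSCs in the Oct4-cKO line, at 3978 and 3919.8 before and 3557 and 3590.5 after conversion of the Sox2-cKO line, and at 3323 and 3381 and 1183 and 1191 in the Nanog-cKO line. The Oct4-cKO ESCs were the low group, and after conversion the line lay between the others. Rian likewise started low, at 160.0 and 138 in ESCs against 1275 and 1392 in L-EPSCs, and ended at the level of the Nanog-cKO L-EPSCs (1285 and 1337), with a difference between lines of 3.91 ± 0.09. Mirg went from 11.5 and 11.6 to 39.0 and 64.7. Plagl1, Mest and Grb10 rose by 1.95, 1.64 and 1.62, and the differences between lines were 2.56, 2.48 and 2.49. Peg10 rose from 9106 and 9075 to 16075 and 15708 here and fell in both other lines, by 1.88 and 1.82. Igf2 fell in all 3 lines, with log2 fold changes of -0.80, -3.73 and -2.21 in the Oct4-, Sox2- and Nanog-cKO lines, and so did Zdbf2, with -3.62, -2.27 and -3.88.

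**Figure D4:**
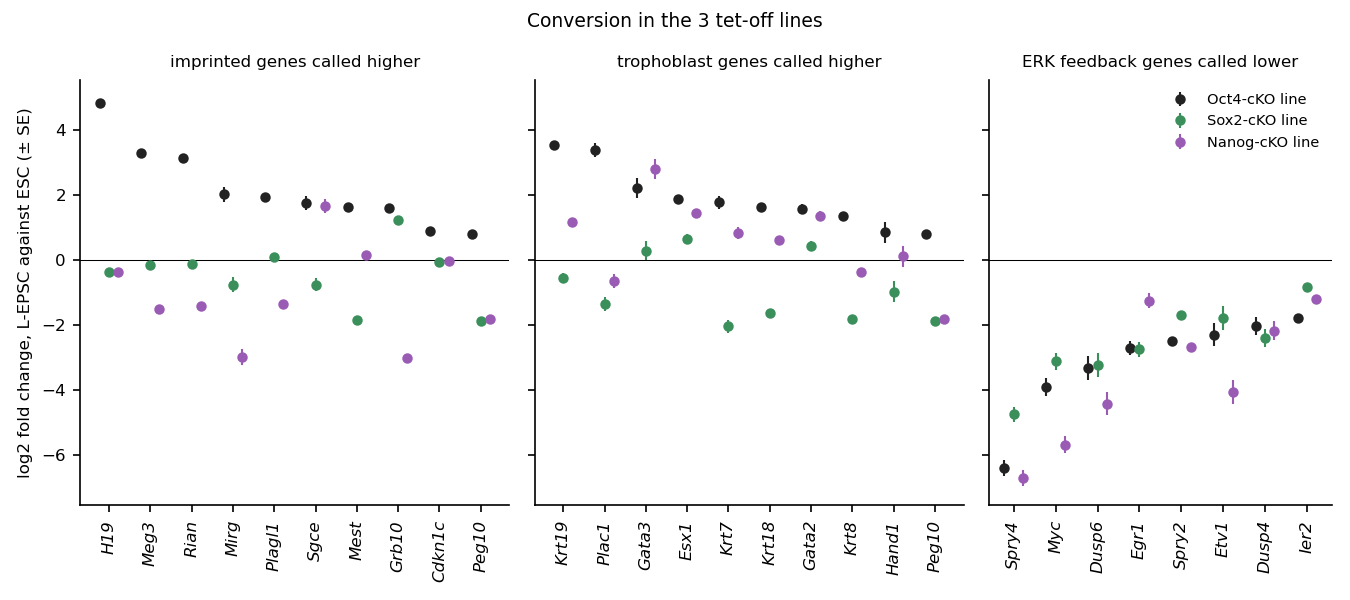
Log2 fold change between L-EPSCs and ESCs (y axis, ± SE) in the Oct4-cKO (black), Sox2-cKO (green) and Nanog-cKO (purple) lines for the 10 imprinted genes and the 10 trophoblast genes called higher and for 8 ERK feedback genes called lower in the Oct4-cKO line. The ERK feedback genes lie below 0 in all 3 lines, whereas H19 is at 4.85 in the Oct4-cKO line and at -0.37 and -0.35 in the others.

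The trophoblast and primitive endoderm markers differed between lines as well. Of the 10 trophoblast genes raised here, 1 was called higher in the Sox2-cKO line and 6 lower, and in the Nanog-cKO line 6 were called higher and 2 lower. The difference between lines was called for 9 of the 17 tested, all towards higher values in the Oct4-cKO line. Krt18 had log2 fold changes of -1.62 ± 0.06 and 0.61 ± 0.06 in the Sox2-cKO and Nanog-cKO lines and Plac1 of -1.34 ± 0.22 and -0.63 ± 0.22. Krt19 (chromosome 11, 100002124-100009979, minus strand) was at 861 and 835 in Sox2-cKO ESCs, above the 158 and 148 of the Oct4-cKO ESCs, and at 53.3 and 84.1 in Nanog-cKO ESCs. For primitive endoderm genes the difference was called in 8 of 17, all higher, with Gata6 at 2.57 ± 0.19 and Dab2 at 2.34 ± 0.23, and for SRF and YAP targets in 7 of 14, all higher, with Ccn2 at 1.99 ± 0.12. The part of starting levels in these differences was not tested.

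The 3 conversions were also read by chromosome. In the Oct4-cKO line the median log2 fold change of genes with a mean of at least 100 lay between -0.055 and 0.122 on each of the autosomes and the X chromosome. In the Nanog-cKO line it was 0.643 on chromosome 6 and 0.508 on chromosome 8 and between -0.161 and 0.065 elsewhere. Of the 16 genes named for the difference between lines, 2 lie on these chromosomes, Slc4a5 and Tuba3a, both on chromosome 6. The difference between lines was called for 23.7% of the genes of chromosome 6 and 17.5% of those of chromosome 8, against 14.8% of all genes at this level. Chromosome 19, whose median in the Nanog-cKO line was 0.022, had 17.6%. The median difference between lines was -0.27 on chromosome 6, -0.208 on chromosome 8 and -0.062 on chromosome 19. Over all genes at this level it was -0.006. The part of the Nanog-cKO shift in these calls was not tested. With the Sox2-cKO line alone as the comparison, 2403 genes were called. On the X chromosome the median was -0.214 in the Sox2-cKO line and 0.094 in the Oct4-cKO line, and 26.6% of its genes were called for the difference.

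**Figure D5:**
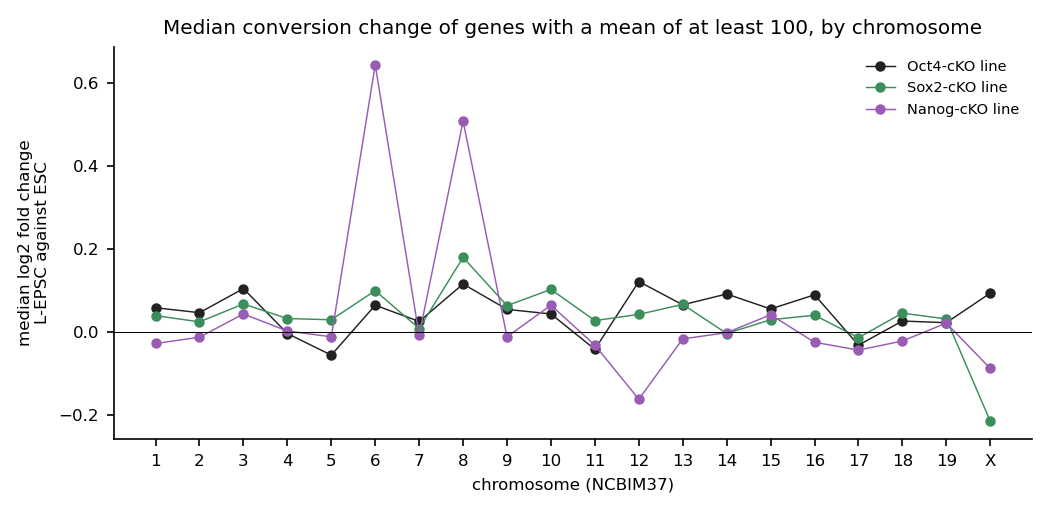
Median log2 fold change between L-EPSCs and ESCs (y axis) of genes whose mean reached 100 normalized counts, on each autosome and the X chromosome (x axis), for the 3 tet-off lines. The Oct4-cKO line (black) stays between -0.055 and 0.122, and the Nanog-cKO line (purple) stands out at 0.643 on chromosome 6 and 0.508 on chromosome 8.

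The J1 line, a wild-type line whose ESCs were kept in serum with 2i, was normalized in a table of its own, so its conversion is set beside this one with no test. Of the 20812 genes tested in both tables, 8.94% were called higher and 11.7% lower in J1. Of the genes called lower in the Oct4-cKO line, 16.3% were higher and 13.4% lower in J1, and of those called higher here, 8.89% were higher and 19.9% lower there. Of the 13 ERK feedback genes lower in the Oct4-cKO line, 9 were called higher in J1 and 0 lower. Spry4 had a log2 fold change of 4.88 in J1 against -6.40 here, Egr1 of 6.40 against -2.71, and Dusp6 of 3.93 against -3.31. Of the 14 formative genes lower here, 8 were called higher in J1, among them Lin28a at 2.49, and of the 10 ATF4 targets higher here, 8 were called lower in J1, with Ddit3 at -2.21. Dnmt3a, at -0.68 here, was at 1.92 in J1. None of the 9 cholesterol genes raised here was called in J1 in either direction. All 6 SRF and YAP targets raised here were called lower in J1, with Ccn2 at -1.31, and 6 of the 7 two-cell genes lower here were called higher, with Zscan4c at 3.84. Of the 9 naive genes lower here, 5 were also called lower in J1 and 0 higher, whereas the 3 naive genes raised here were all lower in J1, Dppa3 at -2.03, Spic at -3.61 and Fbxo15 at -0.74. Stra8 rose in both, by 2.91 here and 2.36 in J1. Fibroblast and macrophage genes moved with the J1 conversion, with log2 fold changes of -2.35 for Col3a1 and 3.59 for Lyz2, and their part in the J1 values was not tested.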

How the data were processed

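Poly(A) RNA of mouse cells was sequenced, and the authors trimmed, aligned and counted the reads per gene (Trim Galore 0.6.4, STAR 2.7.9a, HTSeq 0.11.2 and DESeq2 4.1.1, as the submitters' processing notes list them; mouse build NCBIM37). The deposited values are a signal, gene counts divided by a size factor of DESeq2, and 100% of the values of the 4 libraries were whole multiples of 1 read, so that reads were recovered (for 2 Sox2-cKO libraries the size factor was too near 1 for this step to be read). The strand setting of the counting is not given in the sources used here. Genes with at least 2 reads were tested with limma 3.58.1 (trend, R 4.3.3) on log2(normalized count + 1) over all 18 tet-off libraries, and called at an adjusted p (Benjamini-Hochberg) below 0.05 and a log2 fold change beyond 0.6, so fold changes of low genes are understated. edgeR 4.0.16 and DESeq2 1.42.0 were run on the recovered reads as alternatives. A comparison of 2 libraries with 2 cannot go below p = 0.333 in an exact permutation test. The gene lists, the comparisons and the rule for named genes (the 12 called genes with the largest change in each direction at a mean of at least 100, the 6 with the largest difference in counts, up to 4 members per list and direction, the 8 with the largest difference between lines, Pou5f1, Sox2 and Nanog, and 4 genes the study names) were chosen with earlier results of these data known, and further members were named after their values were seen. The tests across genes were tested on simulated data. Some genes that the rule names are not reported here.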

Additional observations from a re-analysis of the deposited data

Results flagged for a closer look

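For 16 genes with a mean of at least 100 the conversion of the Oct4-cKO line differed from the mean of the conversions of the Sox2-cKO and Nanog-cKO lines in limma's test of the difference, and they are the 8 largest in each direction. The differences towards the Oct4-cKO line, as log2 values, were 5.21 for H19, 4.13 for Meg3, 3.91 for Rian, 3.90 for Mirg, 3.55 for Nxf7, 3.24 for Krt19, 3.05 for Nrk and 2.99 for Rhox9. Nxf7, Nrk and Rhox9 lie on the X chromosome. The differences in the other direction were -3.19 for Slc4a5, -3.11 for Nphs1, -3.03 for Kirrel2, -2.62 for Notum, -2.61 for Tuba3a, -2.45 for Lefty2, -2.41 for Krt42 and -2.37 for Rasgrp2. Slc4a5 and Tuba3a lie on chromosome 6, where the median log2 fold change of the Nanog-cKO line was 0.643. With the Sox2-cKO line alone as the comparison, their differences were -2.31 and -1.32.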

How the results depend on the processing

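At a log2 fold threshold of 1, 4466 genes were called in the conversion, 1894 of them higher, and 1282 in the difference between lines, 742 higher and 540 lower. With the Nanog-cKO line alone as the comparison, an alternative chosen after seeing the data, the genes called lower in the difference numbered 1724 and all those called 3536. Leaving out 1 library at a time gave 6154 to 6313 genes called, 2880 to 2992 higher and 3162 to 3433 lower, and 2138 to 2456 for the difference, 1177 to 1383 higher and 931 to 1086 lower. The other settings gave between 5539 (the 4 libraries alone) and 6849 called genes, edgeR 6693 and DESeq2 6323, and no result reversed. Of 207 values of genes named by the rule, 16 lost their call without at least 1 library. Of the 68 counts of list members called higher or lower, 4 to 7 moved by over 1.5 times on leaving out 1 library of the Oct4-cKO line, 8 with the 4 libraries alone and 22 at a threshold of 1, with 0 to 4 for each other setting. The counts of the ERK feedback, formative pluripotency and DNA methylation lists moved by no more than that under any of these settings. With the replicate number as a block, 6747 genes were called in the conversion and 2323 in the difference, and of the 274 called genes among the members of the lists and the genes named by the rule, 2 lost their call with the block (Mapk10 and Cyp26b1) and Irf7 gained one. Deviations of same-numbered ESC and L-EPSC libraries correlated at -0.0204. No deviation shared by same-numbered libraries was seen in this value. Counting error is part of each deviation, so it cannot show whether the numbers pair the libraries. With 2 libraries per group and no stated separate cultures, the spread may be technical, and low genes carry few reads.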
